A study of Homo sapiens with 6 samples.

Results

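Caspases, APAF1 and the proteins that hold caspases in check were followed by 8 genes: CASP6, CASP8, CASP9, APAF1, XIAP, BIRC2, HTRA2 and DIABLO. All probe sets of the array that the platform annotation gives to 1 of these genes alone were taken, which gave 22 of 54675 probe sets. A probe set is a group of short probes for 1 transcript region, and its signal is given here on the log2 scale after gcrma, a background correction and normalization for Affymetrix arrays. Of the 22 probe sets, 14 exceeded a signal of 100 (6.64 on the log2 scale) on at least 1 of the 6 arrays, as did 16397 of all probe sets. Each of the 8 genes kept at least 1 probe set.

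Apoptosis runs through caspases, proteases that are made as inactive precursors. Death receptors at the cell surface recruit and activate caspase-8, and cytochrome c released from mitochondria drives APAF1 into the apoptosome, the ring that activates caspase-9. These initiators switch on executioner caspases, which cut structural and nuclear proteins. XIAP and BIRC2 (cIAP1) belong to the inhibitor of apoptosis family. XIAP binds and blocks caspases, BIRC2 acts mainly as a ubiquitin ligase, and the mitochondrial proteins HTRA2 and DIABLO (Smac) relieve that block once they reach the cytosol. Much of this control acts on the proteins, which an RNA measurement does not see.

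The cells were KHOS and U-2OS, both established human osteosarcoma cell lines. Each line had 3 arrays: untransfected cells, cells with 40 nM nonspecific siRNA and cells with 40 nM of an siRNA against CDK11, a cyclin-dependent kinase that acts in transcription and splicing. RNA was taken 48 hours after transfection, and the RNA of 3 flasks was pooled for each array, so every group had n = 1 array and no spread within a line could be measured. No sample stood outside these 6 groups, and apart from the transfection the arrays of a line carried no labelled difference.

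The brightest CDK11 probe set was left at 20.6% of its nonspecific siRNA level in KHOS and at 16.0% in U-2OS. Of the 9 osteoblast genes listed as markers, RUNX2, COL1A1 and SPARC exceeded the signal limit in both lines, while 5 with a named probe set (SP7, ALPL, SPP1, COL1A2 and IBSP) did not. The blood markers (0 of 5) and endothelial markers (0 of 3) did not exceed it. Of 5 epithelial genes, EPCAM alone did so, in KHOS, while CDH1, KRT19, CLDN4 and ESRP1 did not in either line. Of 4 mesenchymal genes, VIM, CDH2 and FN1 exceeded the limit in both lines, and THY1 in U-2OS alone. Between 24.8% and 25.9% of probe sets exceeded the limit on each array. Median signals over all probe sets lay between 2.92 and 2.98.

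The plot shows the 14 probe sets on all arrays. In 12 of 14 all arrays of one line lay above all arrays of the other, whatever the transfection. The same held for 74% of all probe sets above the limit. Of the 12, CASP6 209790_s_at and XIAP 243026_x_at exceeded the limit in the higher line alone. Within KHOS the 3 arrays of a probe set spanned 0.14 to 0.64 log2 units, and within U-2OS 0.06 to 1.03. The differences between the line means reached 2.66. In RNA of whole cultures, fewer expressing cells and less RNA per cell cannot be told apart.

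**Figure D1:**
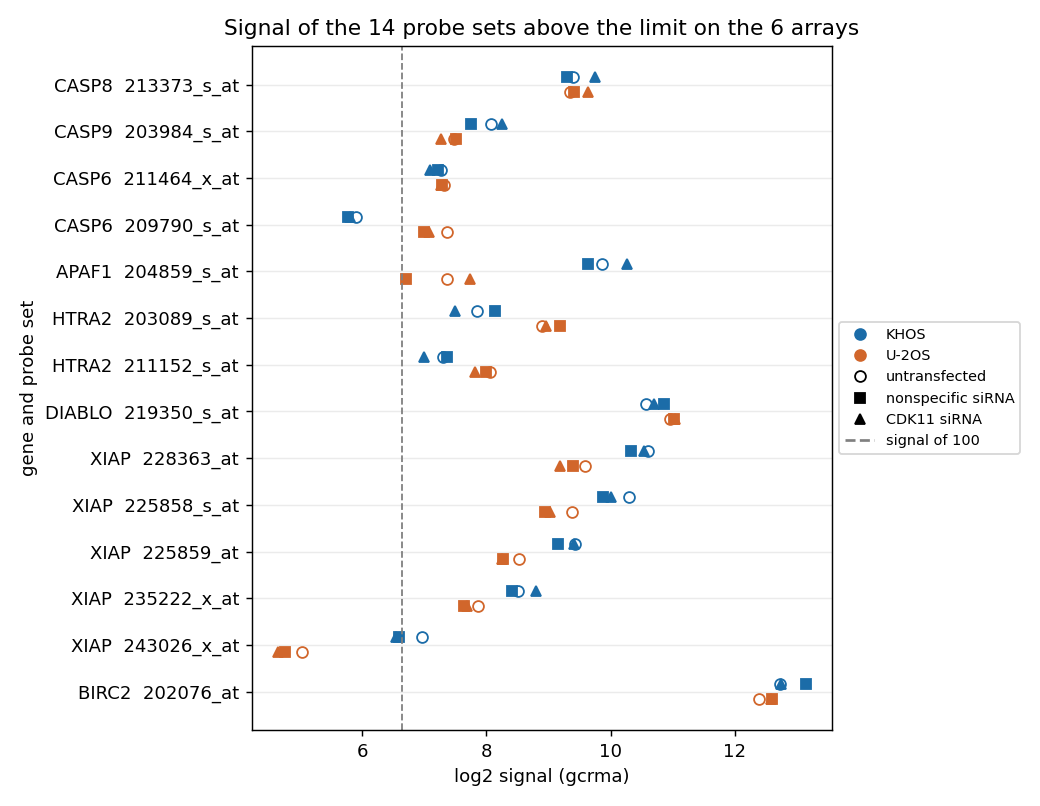
Log2 gcrma signal (x axis) of the 14 probe sets above the limit (rows), on the 3 KHOS arrays (blue) and the 3 U-2OS arrays (orange), with symbols for the transfection and 1 array per symbol. The KHOS values of APAF1 run from 9.63 to 10.27 and its U-2OS values from 6.70 to 7.73, and the dashed line marks a signal of 100.

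APAF1, the scaffold of the apoptosome, had the widest range of these genes and was the only one past 1.5-fold in the same direction in both lines after CDK11 siRNA. Its probe set 204859_s_at had log2 signals in KHOS of 9.87 (untransfected), 9.63 (nonspecific siRNA) and 10.27 (CDK11 siRNA). In U-2OS the signals were 7.37, 6.70 and 7.73. In both lines the nonspecific siRNA array was the lowest and the CDK11 siRNA array the highest, and no KHOS value overlapped a U-2OS value.

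With CDK11 siRNA, APAF1 was 1.56-fold higher than with nonspecific siRNA in KHOS and 2.05-fold higher in U-2OS. As far or farther in that direction lay 5.84% of all probe sets above the limit in KHOS and 1.16% in U-2OS. On the scale of the spread of all differences in the line, APAF1 stood 1.42 SD from the mean in KHOS and 2.77 SD in U-2OS, short of the study's limit of 3 SD. The nonspecific siRNA arrays lay below the untransfected ones. Nonspecific siRNA alone went with log2 differences of -0.24 (KHOS) and -0.67 (U-2OS), and relative to untransfected cells the CDK11 siRNA arrays were 1.32-fold and 1.29-fold higher. These comparisons share arrays and are not independent of each other.

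Across both lines, with the line as a block, limma put the CDK11 siRNA difference of APAF1 at 0.84 log2 units (SE 0.16, 95% interval 0.42 to 1.25, higher in 2 of 2 lines). Its adjusted p over all 16397 probe sets was 0.194, so the difference did not pass the threshold of 0.05. In U-2OS, APAF1 went beyond 3 SD when the median and MAD replaced the mean and SD, and with 3 other choices given under the processing alternatives. The other APAF1 probe sets, 211553_x_at and 211554_s_at, stayed below the signal limit, and 204859_s_at alone carried the gene.

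The promoter of APAF1 is shown because its start lies 502 bases from that of IKBIP, a gene read in the opposite direction. The windows cover 250 bases before and 30 after each start, are RefSeq sequences of GRCh38.p14, and are written 5′ to 3′ on the strand of the gene. Capitals mark matches to a CCAAT box (CCAAT) or a GC box (GGGCGG) on either strand. The window of APAF1 is chr12:98645040-98645319 on the plus strand, and that of IKBIP is chr12:98644759-98645038 on the minus strand.
APAF1: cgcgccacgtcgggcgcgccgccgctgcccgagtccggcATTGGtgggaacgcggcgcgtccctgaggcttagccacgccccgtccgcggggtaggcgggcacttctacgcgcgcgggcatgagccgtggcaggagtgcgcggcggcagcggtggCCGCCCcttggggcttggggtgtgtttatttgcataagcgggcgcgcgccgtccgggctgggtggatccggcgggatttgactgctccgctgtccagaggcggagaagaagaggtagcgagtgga
IKBIP: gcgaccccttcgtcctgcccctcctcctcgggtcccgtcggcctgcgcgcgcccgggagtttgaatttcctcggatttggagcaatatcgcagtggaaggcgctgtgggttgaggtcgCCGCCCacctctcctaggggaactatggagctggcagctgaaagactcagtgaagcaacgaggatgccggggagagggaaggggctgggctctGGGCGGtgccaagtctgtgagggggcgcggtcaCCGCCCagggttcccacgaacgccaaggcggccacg

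The APAF1 window held 1 CCAAT box, read on the reverse strand at positions -211 to -207 from the start, and 1 GC box at -95 to -90. The IKBIP window held 3 GC boxes. Such matches are common, with a CCAAT box in 33.6% and a GC box in 44.1% of all 35116 windows of that length.

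IKBIP and APAF1 were both higher in KHOS. The brightest IKBIP probe set, 236249_at, had log2 signals in KHOS of 11.17 (untransfected), 10.88 (nonspecific siRNA) and 10.85 (CDK11 siRNA). In U-2OS they were 8.99, 8.40 and 8.71. The 2 other IKBIP probe sets also separated the lines, with differences of 3.05 for 227295_at and 2.21 for 235202_x_at. Between CDK11 siRNA and nonspecific siRNA, across both lines, the limma difference was 0.15 for 236249_at, 0.53 for 227295_at and 0.20 for 235202_x_at, with adjusted p of 0.687, 0.262 and 0.618, and the 95% intervals overlap. IKBIP was looked at because of its position, after its values could be seen.

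The genes whose deviations from the line means were nearest to those of APAF1 over the 6 arrays were RABGAP1L, USP6NL and DOCK11. RABGAP1L lay at a Euclidean distance of 0.15 log2 units from APAF1, USP6NL at 0.18 and DOCK11 at 0.18. RABGAP1L had log2 signals of 6.88, 6.52 and 7.08 on the KHOS arrays and of 6.35, 5.64 and 6.70 on those of U-2OS, in the order untransfected, nonspecific siRNA and CDK11 siRNA. The profiles were picked from all genes above the limit for their likeness, so their closeness is a description.

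CASP8, the initiator caspase of the death receptor pathway, had 1 probe set above the limit, 213373_s_at. Its log2 signals in KHOS were 9.40 (untransfected), 9.30 (nonspecific siRNA) and 9.75 (CDK11 siRNA). In U-2OS they were 9.34, 9.41 and 9.63. The CDK11 siRNA array was the highest in each line, and the lines overlapped.

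The CASP8 differences between CDK11 siRNA and nonspecific siRNA were 0.45 (KHOS) and 0.22 (U-2OS). Relative to untransfected cells they were 0.35 and 0.29, so CASP8 differed little with the choice of control. The limma difference against nonspecific siRNA was 0.34 (SE 0.13, 95% interval 0.01 to 0.67) with an adjusted p of 0.344. The probe sets 1553306_at and 207686_s_at were below the limit in every group, the first between 2.14 and 2.17 and the second between 5.70 and 5.78.

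The first of 3 CASP8 starts in the RefSeq table is shown because it holds the only match among these genes to the interferon-stimulated response element (GAAA, any 2 bases, GAAA), the site through which interferon acts on many genes. The window is chr2:201233213-201233492 on the plus strand of GRCh38.p14. Capitals mark a GC box at -96 to -91 and the response element letters, read on the reverse strand, at -3 to 7.
CASP8: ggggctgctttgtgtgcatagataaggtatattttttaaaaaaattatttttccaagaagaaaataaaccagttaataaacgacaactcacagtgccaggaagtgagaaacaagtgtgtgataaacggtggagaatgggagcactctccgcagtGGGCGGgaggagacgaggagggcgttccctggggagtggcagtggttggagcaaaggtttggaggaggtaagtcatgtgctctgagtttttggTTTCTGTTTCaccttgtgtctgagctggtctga

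Of all windows, 3.39% held that match. In KHOS, nonspecific siRNA went with a higher signal of 9 of 9 measured interferon response genes past 1.5-fold, where 4.62% of all genes were, and CASP8 was at 9.40 without and 9.30 with it. The match says only that these letters lie in the window. The other motifs searched on both strands were TATAAA, the NRF1 site, the ETS site CCGGAAGT and the E2F sites TTTGGCGC, TTTCCCGC, TTTCGCGC and TTTGCCGC. Among the windows of the 8 genes, TATAAA was found in 1 of CASP8 and the ETS site in 1 of DIABLO, and NRF1 and E2F letters were in none.

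CASP9, the caspase that the apoptosome activates, had differences of opposite sign in the lines after CDK11 siRNA. Its probe set 203984_s_at had log2 signals of 8.07 (untransfected), 7.75 (nonspecific siRNA) and 8.25 (CDK11 siRNA) in KHOS. In U-2OS they were 7.48, 7.51 and 7.26. CDK11 siRNA was 0.50 above nonspecific siRNA in KHOS and 0.25 below it in U-2OS, both short of 1.5-fold. The limma difference was 0.12 with a 95% interval of -0.42 to 0.66. That the lines differ was not tested, since each value rests on 1 pair of arrays. The probe sets 210775_x_at and 240437_at were below the limit.

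CASP6, an executioner caspase that cuts nuclear lamins, was measured by a pair of probe sets. The signals of 209790_s_at were 5.91, 5.76 and 5.80 on the KHOS arrays and 7.37, 7.00 and 7.07 on those of U-2OS, in the order untransfected, nonspecific siRNA and CDK11 siRNA. Those of 211464_x_at were 7.27, 7.22 and 7.10 on the KHOS arrays and 7.32, 7.28 and 7.26 on those of U-2OS. By the first probe set the KHOS values were all below the limit and under those of U-2OS, and by the second the lines overlapped. Between CDK11 siRNA and nonspecific siRNA the differences of both probe sets lay between -0.12 and 0.07.

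HTRA2, the mitochondrial serine protease that binds inhibitors of apoptosis, was the gene farthest down in KHOS after CDK11 siRNA. The signals of 203089_s_at were 7.85 (untransfected), 8.13 (nonspecific siRNA) and 7.49 (CDK11 siRNA) in KHOS, and 8.90, 9.18 and 8.96 on the U-2OS arrays. Those of 211152_s_at were 7.29, 7.36 and 6.99 on the KHOS arrays and 8.05, 7.99 and 7.81 on those of U-2OS. By both probe sets the KHOS array with CDK11 siRNA was the lowest of the 6.

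Against nonspecific siRNA, HTRA2 was 1.56-fold lower in KHOS and 1.16-fold lower in U-2OS by 203089_s_at, then 1.29-fold and 1.14-fold lower by 211152_s_at. As far or farther down by the first value lay 6.64% of all probe sets in KHOS. Against untransfected cells, 203089_s_at differed by -0.35 in KHOS and 0.07 in U-2OS. The limma differences against nonspecific siRNA were -0.43 (SE 0.16, 95% interval -0.85 to -0.01, adjusted p = 0.342) and -0.28 (SE 0.12, 95% interval -0.60 to 0.04), lower in 2 of 2 lines by each.

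The HTRA2 promoter is shown because one of its starts lies 227 bases from that of AUP1, read in the opposite direction, so that nearly all of the window is also that of AUP1. The window is chr2:74529683-74529962 on the plus strand of GRCh38.p14, with a GC box at -211 to -206 in capitals.
HTRA2: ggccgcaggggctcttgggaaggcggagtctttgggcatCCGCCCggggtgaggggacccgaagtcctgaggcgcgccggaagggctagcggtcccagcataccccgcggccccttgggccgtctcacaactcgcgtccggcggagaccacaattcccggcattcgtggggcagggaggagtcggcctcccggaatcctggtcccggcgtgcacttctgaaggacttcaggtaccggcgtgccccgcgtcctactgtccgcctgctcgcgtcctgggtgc

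AUP1 is a lipid droplet protein that takes part in protein degradation at the endoplasmic reticulum. It did not follow HTRA2 from nonspecific siRNA to CDK11 siRNA, while both genes were higher in U-2OS. Its probe set 220525_s_at had log2 signals of 11.05 (untransfected), 11.38 (nonspecific siRNA) and 11.43 (CDK11 siRNA) in KHOS, and of 11.56, 11.63 and 11.77 on the U-2OS arrays. Where HTRA2 was lowest, on the KHOS array with CDK11 siRNA, AUP1 was at the highest of its 3 KHOS values.

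**Figure D2:**
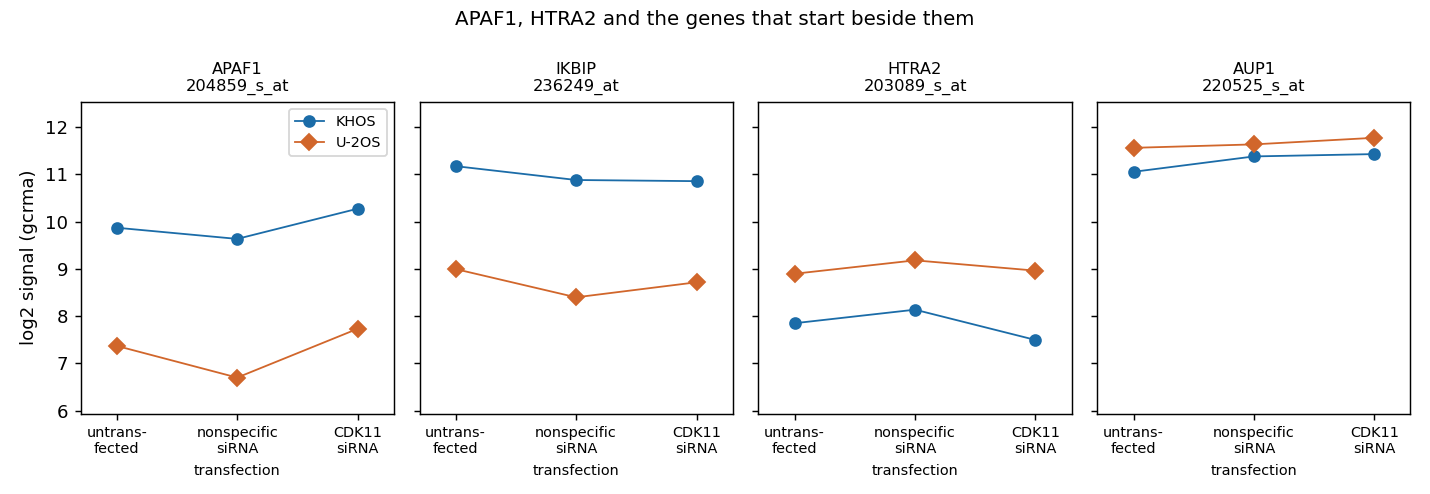
Log2 gcrma signal (y axis, shared by the panels) of APAF1 and IKBIP, and of HTRA2 and AUP1, by transfection (x axis) in KHOS (blue) and U-2OS (orange), 1 array per point; lines join the arrays of a cell line. APAF1 and IKBIP lie higher in KHOS, HTRA2 and AUP1 in U-2OS, and the lowest HTRA2 value is 7.49, in KHOS with CDK11 siRNA.

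DIABLO, which displaces XIAP from caspases, was among the steadiest. Its probe set 219350_s_at had log2 signals of 10.57 (untransfected), 10.86 (nonspecific siRNA) and 10.71 (CDK11 siRNA) in KHOS, and of 10.96, 11.03 and 11.04 on the U-2OS arrays. All U-2OS arrays were above all KHOS arrays. The limma difference between CDK11 siRNA and nonspecific siRNA was -0.07 with a 95% interval of -0.40 to 0.26.

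XIAP, the direct caspase inhibitor, was higher in KHOS by all 5 of its probe sets above the limit. It was also lower with nonspecific siRNA than without transfection by all 5 in both lines. Among these 5, 243026_x_at exceeded the limit on the untransfected KHOS array alone (6.97), so the filter favoured both directions for it. The brightest, 228363_at, had log2 signals of 10.60 (untransfected), 10.33 (nonspecific siRNA) and 10.53 (CDK11 siRNA) in KHOS, and of 9.58, 9.39 and 9.18 on the U-2OS arrays. The probe set 225858_s_at had 10.29, 9.88 and 10.01 on the KHOS arrays and 9.38, 8.95 and 9.02 on those of U-2OS. No array of KHOS overlapped one of U-2OS by any of the 5.

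Nonspecific siRNA went with XIAP differences of -0.10 to -0.42 (KHOS) and -0.19 to -0.43 (U-2OS), none past 1.5-fold. The largest limma difference was -0.43 by 225858_s_at (SE 0.12, 95% interval -0.73 to -0.12), with an adjusted p of 0.484. The 5 probe sets read the same RNA and are not replicates. Between CDK11 siRNA and nonspecific siRNA they ran from -0.04 to 0.39 in KHOS and from -0.21 to 0.08 in U-2OS. The probe sets 206536_s_at and 206537_at were below the limit. By the first, CDK11 siRNA was above nonspecific siRNA by 0.48 (KHOS) and 0.24 (U-2OS), values at a level where nothing is read from them.

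BIRC2, the cellular inhibitor of apoptosis cIAP1, had log2 signals of 12.73 (untransfected), 13.15 (nonspecific siRNA) and 12.74 (CDK11 siRNA) in KHOS by 202076_at. In U-2OS they were 12.38, 12.61 and 12.58. The nonspecific siRNA array was the highest in each line. CDK11 siRNA differed from it by -0.40 in KHOS and -0.03 in U-2OS, and from untransfected cells by 0.02 and 0.19, so the KHOS array with nonspecific siRNA stood apart from both others. The limma difference from nonspecific siRNA was -0.22 with a 95% interval of -0.59 to 0.16.

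Over the 14 probe sets, 0 lay beyond 3 SD between CDK11 siRNA and nonspecific siRNA, against 1.38% of all probe sets above the limit in KHOS and 1.87% in U-2OS. Past 1.5-fold were 2 of 14 in KHOS (APAF1 higher and HTRA2 lower), where 15% of all were, and 1 of 14 in U-2OS (APAF1), where 9.24% were. Past 1.5-fold in the same direction in both lines was 1 of 14, against 3.67%. Their medians, 0.09 for KHOS and -0.01 for U-2OS, stand beside 0.01 and 0.01 over all. The counts within a line were near or below the background shares, and the count in both lines rests on 1 probe set.

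Between nonspecific siRNA and untransfected cells, 0 of 14 lay beyond 3 SD, against 1.51% of all in KHOS and 1.59% in U-2OS. There, 0 of 14 passed 1.5-fold in KHOS, against 8.82% of all, and 1 of 14 in U-2OS (APAF1, lower), against 11.1%. Lower in both lines were 8 of 14, against 30.4% of all. These 8 were the 5 probe sets of XIAP, both of CASP6 and that of APAF1, 3 genes in all. Of the 8, CASP6 209790_s_at was below the limit on every KHOS array and XIAP 243026_x_at on every U-2OS array. That XIAP probe set was kept through the untransfected KHOS array alone, so the filter favoured a lower value with nonspecific siRNA there. The medians were -0.12 (KHOS) and -0.13 (U-2OS), beside -0.003 and -0.02 over all. By the brightest probe set of each gene the medians were -0.08 and 0.05, and XIAP makes 5 of the 14 values. Between CDK11 siRNA and untransfected cells, 0 of 14 passed 1.5-fold in either line, against 19.9% of all in KHOS and 12.6% in U-2OS, and 0 lay beyond 3 SD, against 1.59% and 1.62%.

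In limma across both lines, 0 of 16397 probe sets passed an adjusted p of 0.05 in any of the 3 transfection comparisons (0%). At an unadjusted p under 0.05 were 2337 for CDK11 siRNA against nonspecific siRNA, 1468 for nonspecific siRNA against untransfected and 3162 for CDK11 siRNA against untransfected, with 3, 3 and 2 of the 14 among them. The fit had 2 residual degrees of freedom, and its spread is how far the lines differed in their responses. A difference that missed the threshold may still exist.

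**Figure D3:**
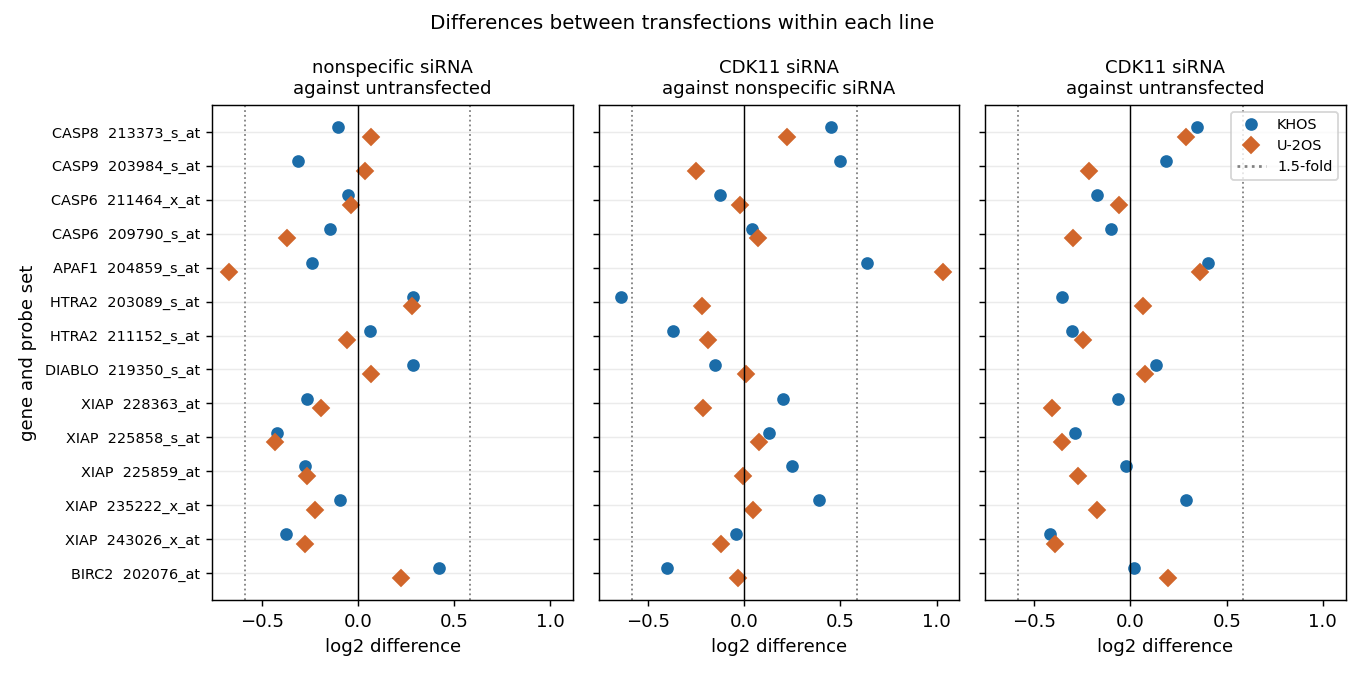
Log2 differences (x axis) of the 14 probe sets (rows) in the 3 comparisons of transfections, within KHOS (blue circles) and U-2OS (orange diamonds), 1 pair of arrays per point with no error; dotted lines mark 1.5-fold. APAF1 lies at 0.64 and 1.03 between CDK11 siRNA and nonspecific siRNA, HTRA2 at -0.64 in KHOS, and no point passes 1.5-fold between CDK11 siRNA and untransfected cells.

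KHOS and U-2OS differed in 12 of the 14 probe sets at an adjusted p under 0.05 in limma, with transfection as a term, where 72.1% of all probe sets did. A probe set kept through its higher line alone had to differ, which holds for CASP6 209790_s_at and XIAP 243026_x_at. With the filter on the mean of the 6 arrays, which leaves both out, 10 of 12 passed, against 71.3% of all. Without overlap between the lines were also 12 of 14, against 74% of all. With 14 probe sets, 5 of them from XIAP, nothing particular to these genes is read from these shares. The 3 arrays of a line differ in transfection, RNA of each line came from its own cultures, and line cannot be told apart from anything else that went with the cultures of that line. The median signal of the probe sets above the limit was higher in KHOS by 0.15.

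APAF1 was 6.32-fold higher in KHOS, with means of 9.92 ± 0.32 and 7.27 ± 0.52 (SD, n = 3 arrays, the 3 transfections of a line) and a limma adjusted p of 0.000113. XIAP was higher by 0.84 to 1.10 log2 units over the 4 probe sets above the limit in both lines, 2.15-fold by the brightest, with limma adjusted p from 0.000865 to 0.00353. By 243026_x_at all U-2OS values were below the limit. CASP9 was 1.52-fold higher (limma adjusted p = 0.0254) and BIRC2 1.27-fold higher (limma adjusted p = 0.0452).

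Lower in KHOS was HTRA2, 2.28-fold by 203089_s_at and 1.67-fold by 211152_s_at (limma adjusted p = 0.00115 and 0.00227). For CASP6, all KHOS values of 209790_s_at were below the limit, so its fold and test are not given, and 211464_x_at differed by -0.09 with a 95% interval of -0.34 to 0.16. DIABLO was 1.23-fold lower (limma adjusted p = 0.0497). CASP8 differed by 0.02 with a 95% interval of -0.25 to 0.29. The calls of BIRC2 and DIABLO were lost whenever any 1 of the 6 arrays was left out, and that of CASP9 without either untransfected array or either CDK11 siRNA array. BIRC2 and CASP9 also lost theirs once each array was centred on its median, and BIRC2, DIABLO and CASP9 with no filter on low signals. Without transfection as a term, BIRC2 and DIABLO lost theirs.

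The other genes of the pathway were taken from lists, with the brightest probe set for each gene. Of 8 other caspases, 6 had a named probe set and 2 exceeded the limit, CASP2 and CASP4. CASP4, an inflammatory caspase, had log2 signals of 8.79 (untransfected), 9.13 (nonspecific siRNA) and 9.41 (CDK11 siRNA) in KHOS, and of 9.14, 9.90 and 9.69 on the U-2OS arrays. The untransfected array was the lowest in both lines. Of the apoptosome and mitochondrial factors, 4 of 5 exceeded the limit (CYCS, AIFM1, AVEN and NOL3), and 0 of 4 passed 1.5-fold in any comparison of transfections. Of the caspase substrates, 5 of 6 exceeded the limit, and 0 of 5 passed 1.5-fold. Within a line, 3.75% to 9.03% of all genes were higher past 1.5-fold by their brightest probe set, and 3.54% to 9.33% lower. With so few genes, a count of 0 is near those shares.

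Of the other inhibitors of apoptosis and their antagonists, 3 of 6 with a named probe set exceeded the limit: BIRC5, BIRC6 and XAF1. BIRC5 (survivin), which also serves the mitotic spindle, had log2 signals of 11.01, 10.58 and 10.06 on the KHOS arrays and of 11.72, 11.08 and 11.02 on those of U-2OS by 202095_s_at, in the order untransfected, nonspecific siRNA and CDK11 siRNA. The log2 difference of CDK11 siRNA and untransfected cells was -0.94 for KHOS and -0.70 for U-2OS, and no other gene of that list was past 1.5-fold the same way in both lines. Lower past 1.5-fold in both lines were 231 of 8878 genes. The limma difference was -0.82 by 202095_s_at, -0.74 by 202094_at, -0.78 by 210334_x_at and -0.40 by 1555826_at (adjusted p from 0.115 to 0.213). XAF1 binds XIAP and is induced by interferon. By 206133_at it had 8.32, 9.87 and 10.60 on the KHOS arrays and 4.02, 4.06 and 4.48 on those of U-2OS. All U-2OS values of 206133_at were below the limit. It was kept through KHOS alone, so no difference between the lines is read from it. With nonspecific siRNA, XAF1 was higher in KHOS by 1.55, while XIAP was lower.

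Of the death receptor genes, 7 of 8 with a named probe set exceeded the limit. FAS, a death receptor that signals through CASP8 and a p53 target, had log2 signals of 8.21 (untransfected), 7.27 (nonspecific siRNA) and 7.96 (CDK11 siRNA) in U-2OS. In KHOS it was below the limit, at 4.86, 5.05 and 4.86. The U-2OS array with nonspecific siRNA was the lowest of the line for FAS as for APAF1. APAF1 is also a p53 target, and whether p53 had a part in these values was not tested. TNFRSF10A, a receptor for TRAIL, was near 10 in KHOS (10.24, 9.98 and 10.15). In U-2OS it was below the limit, at 4.75, 3.14 and 3.07.

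Of the p53 targets, 7 of 8 with a named probe set exceeded the limit. In U-2OS, 4 of 7 were lower past 1.5-fold with nonspecific siRNA (GDF15, TP53INP1, BAX and FAS), where 5.63% of all genes were, with a median of -0.63. In KHOS, 3 of 7 were higher past 1.5-fold (CDKN1A, GDF15 and TP53INP1), against 4.62%, with a median of 0.27, while APAF1 was lower by 0.24. Of the interferon response genes, 9 of 9 were higher past 1.5-fold with nonspecific siRNA in KHOS, between 1.07 and 2.32. In U-2OS 2 of 9 were, where 3.75% of all genes were. Over the kept probe sets of these genes KHOS was above U-2OS by 2.18 (IRF1 238725_at) to 8.58 log2 units (IFIT1 203153_at). A gene can exceed the limit through KHOS alone, so the counts of the lines are not set against each other. With CDK11 siRNA against nonspecific siRNA, 1 gene of these pathway lists lay beyond 3 SD: OAS1, an enzyme that senses double-stranded RNA, at 1.73 in U-2OS and -0.10 in KHOS by 202869_at. Across both lines the limma difference was 0.82 by 202869_at and 0.21 by 205552_s_at, its other probe set above the limit (adjusted p = 0.505 and 0.766). By 202869_at, KHOS was above U-2OS by 5.65 log2 units, so the 1.73 of U-2OS was measured at a far lower signal. The filter takes the highest array, and no difference between the lines is read from this gene. The part that these movements have in the values of APAF1, CASP8 and XIAP was not tested.

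**Figure D4:**
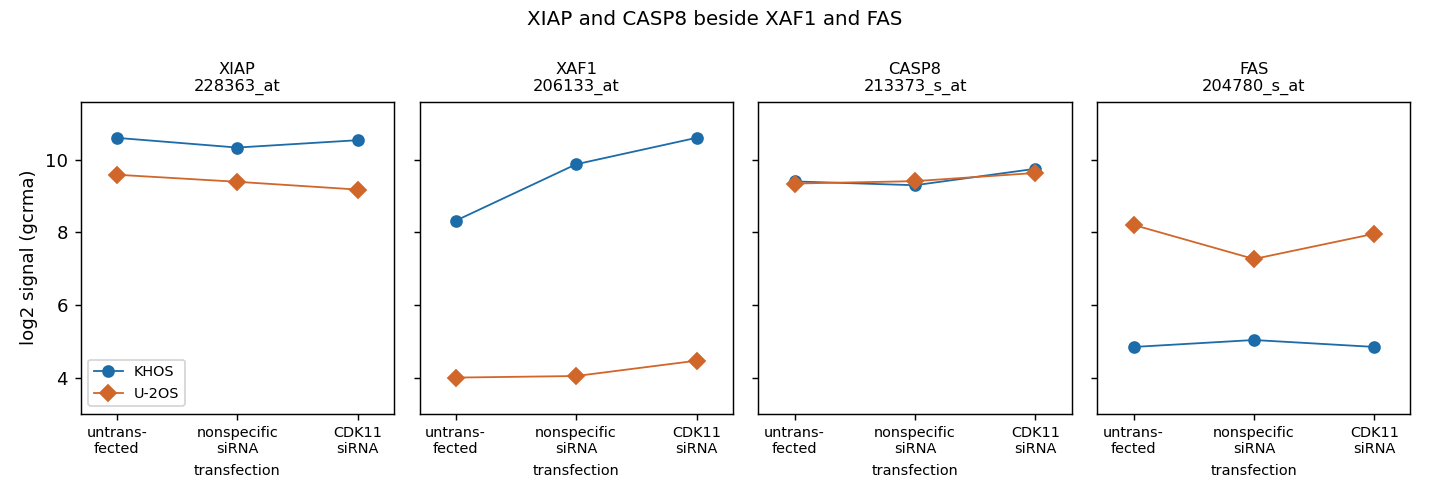
Log2 gcrma signal (y axis, shared by the panels) of XIAP, XAF1, CASP8 and FAS by transfection (x axis) in KHOS (blue) and U-2OS (orange), 1 array per point; lines join the arrays of a cell line. XAF1 goes from 8.32 to 10.60 in KHOS and stays at or below 4.48, under the signal limit, in U-2OS. The lines overlap for CASP8, and FAS in U-2OS is lowest with nonspecific siRNA, at 7.27.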

How the data were processed

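Total RNA of KHOS and U-2OS cells was hybridised to 6 Affymetrix U133 Plus 2.0 arrays, 1 per line and transfection. The deposited values are log2 signals that the authors computed with gcrma, and they were used as given. A genome build for the arrays was not given in the sources used here. Genes came from the platform annotation: 41097 probe sets had 1 symbol, 1801 several and 11777 none, and those with several or none were not named. Of the listed genes without a named probe set, none was analysed here. As in the study's methods, probe sets whose highest array exceeded a signal of 100 were kept (30.0%), and log2 differences within a line were scaled by their mean and SD over these, with 3 SD as the limit. The study's present and absent calls were not used here. With 1 array per group there is no test within a line.

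Across lines, limma 3.58.1 (R 4.3.3) was fitted to all kept probe sets with transfection and cell line as terms, two-sided, with Benjamini-Hochberg adjustment at 0.05, and was tested on simulated data. The line is the block that pairs the arrays: arrays of 1 line come from the same cell line. The number of arrays limits the precision. The brightest probe set stood for a gene in counts of genes. All probe sets of the 8 genes were named. Of the pathway lists (the cell type markers served only to check the lines) a gene was to be named when a probe set passed 3 SD between CDK11 siRNA and nonspecific siRNA, or every kept probe set passed 1.5-fold one way in both lines, with both required in the other comparisons. OAS1 met this rule. BIRC5, CASP4, FAS, TNFRSF10A, XAF1, IKBIP, AUP1 and the comparison of the lines were taken up after values were seen. The genes and lists were chosen with earlier results of these data known. Alternatives changed the filter, the normalization, the probe sets, the scale and threshold of the SD, limma's variance prior and block, and the arrays used.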

Additional observations from a re-analysis of the deposited data

Results flagged for a closer look

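A probe set outside the main measurement had a difference past 1.5-fold. APAF1 211554_s_at stayed under a signal of 100 on all 6 arrays. Its log2 signals in KHOS were 2.38 (untransfected), 2.37 (nonspecific siRNA) and 3.05 (CDK11 siRNA), and the U-2OS arrays gave 2.37, 2.33 and 2.37. CDK11 siRNA stood above nonspecific siRNA in KHOS by 0.67, on 1 pair of arrays and at a level where most of the array's probe sets lie.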

How the results depend on the processing

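Of 175 recomputed counts and medians, 158 stayed within the limits set for a move, while 5 of 36 medians changed sign. In U-2OS, 1 member (APAF1) went beyond 3 SD between CDK11 siRNA and nonspecific siRNA with no filter, with a filter on the mean of the arrays, with 1 probe set (the brightest) per gene, and with median and scaled MAD, and 1 passed a limit of 2 SD. Without _s_at, _x_at and _a_at probe sets, which left 2 of XIAP and 1 of BIRC2, the counts past 1.5-fold became 0 in both lines for CDK11 siRNA against nonspecific siRNA and 0 in U-2OS for nonspecific siRNA against untransfected, and the KHOS medians became 0.20 (from 0.09) and -0.27 (from -0.12). With no filter, 1 probe set passed 1.5-fold between CDK11 siRNA and untransfected KHOS cells, and the U-2OS medians against untransfected were 0.00609 with nonspecific siRNA (from -0.13) and 0.0133 with CDK11 siRNA (from -0.20). By the brightest probe set of each gene these were 0.0508 and 0.0710, and the KHOS median of CDK11 siRNA against untransfected was 0.0754 (from -0.04). Between the lines, 6 of 8 passed limma by the brightest probe set, against 71.7% of all genes. The other alternatives for the lines were added after seeing the data. No filter called 9 of 22, against 22.5% of all, and the filter on the mean 10 of 12, against 71.3%. The rest called 10 to 12 of 14, against 66.8% to 75.6%. Leaving out 1 array called 9 to 10 of 14, against 60.0% to 67.0%.

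The 14 probe sets stayed at 0 calls in limma in all 3 transfection comparisons under every alternative run, also without the replicate block, that is with the pairing by line left out (0 in each), and with 1 array left out (0 to 0). A variance prior that follows the level called 211 of all probe sets for CDK11 siRNA against nonspecific siRNA and 574 for CDK11 siRNA against untransfected, and the filter on the mean called 64 in the latter. The 48 single-gene differences moved by at most 0.17 and changed sign 6 times, 0 times for a value of 0.1 or more. Nothing is read from differences of probe sets below the limit.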
